A study of Rattus norvegicus with 6 samples.

Results

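MiR-103 and miR-107 were followed in small RNA libraries of rat cortical neurons through 3 rows of the deposited counts, rno-miR-103-3p, rno-miR-107-3p and rno-miR-107-5p, out of 649 mature miRNAs listed. They were taken by name, and all 3 names were present in the 6 libraries. The neurons came from Sprague-Dawley embryos of embryonic day 18, were dissociated and kept for 7 days in vitro according to the sample labels (a figure legend of the study gives a day less). 3 samples received 100 ng/ml brain-derived neurotrophic factor (BDNF) for 20 min, and 3 Control samples received the vehicle alone, 0.1% BSA, for the same time. All cultures also received an antimitotic drug that limits dividing non-neuronal cells, and no sample carried a genetic change. Libraries held between 10374120 and 12533029 reads, so that 3 reads, the one-sided limit that a count of 0 allows, correspond to at most 0.289 RPM (a miRNA's reads scaled to 1000000 counted reads of its library). Poisson intervals given for counts are two-sided and reach higher.

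MiR-103 and miR-107 are known as repressors of Dicer, the endoribonuclease that cuts pre-miRNA hairpins into miRNA duplexes, and they act by pairing with the Dicer mRNA. Each is made by Dicer itself, so a rise or fall of the pair bears on the supply of the enzyme that makes all canonical miRNAs. Their genes lie in genes of the pantothenate kinases, which start coenzyme A synthesis. Pre-miR-107 is also known as a target of Lin28, an RNA-binding protein that recognises the bases GGAG in a precursor loop and recruits TUT4, a uridylyl transferase, which tags the precursor and keeps it from Dicer. Lin28 is best known for holding back the let-7 family. The comparison of BDNF with Control asked whether the mature products of these hairpins moved within 20 min of a stimulus whose effect on Dicer and its cofactor TRBP the study examined. By Western blot the study detected no change in total Dicer or TRBP protein at that time, and it reported less Dicer bound to TRBP.

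The mature sequences are shown first because the counts of both miRNAs rest on a single base. RefSeq gives rno-miR-103-3p at chr3:138963278-138963300 (plus strand, gene Mir103a2) and rno-miR-107-3p at chr1:241750431-241750453 (minus strand, gene Mir107) in the GRCr8 build. Capitals mark the seed, bases 2 to 8, which pairs with target mRNAs.
rno-miR-103-3p: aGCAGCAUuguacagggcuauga
rno-miR-107-3p: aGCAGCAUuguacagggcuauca
Both are 23 bases long and share the seed and the first 21 bases. The one difference is G22C, counted from the 5′ end with the base of miR-103-3p first. No other of the 693 mature names in the RefSeq table carries this seed or lies within 1 mismatch of either sequence over its whole length. A read that ends before base 22 is the same for both, and the authors' alignment accepted 1 mismatch and reads with shortened or extended 3′ ends. How such reads were shared between both rows is not given in the sources used here, so the split between rno-miR-103-3p and rno-miR-107-3p is uncertain, and their sum is given beside the separate values.

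The seed of the miR-15/16 group is that of miR-103 and miR-107 moved by a base, as the member of that group with most reads shows.
rno-miR-16-5p: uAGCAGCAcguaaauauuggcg
Its bases 2 to 8 equal bases 1 to 7 of miR-103-3p. The same held for all 5 of the 6 listed members of the group that had a sequence in the table.

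The hairpins differ more than the mature strands. Rno-miR-103-3p is encoded by Mir103a1 (chr10:20748474-20748559, plus strand, within the span of Pank3) and by Mir103a2 (chr3:138963227-138963312, plus strand, within Pank2), and its count cannot be divided between them. Rno-miR-107-3p comes from Mir107 (chr1:241750418-241750504, minus strand, within Pank1). Gene spans alone were compared, and exons were not analysed here. The 24 bases just before the 3p arm, which hold the side of the loop next to it, are shown with GGAG in capitals where it occurs.
Mir103a1: ugcugccuuguugcauauggauca
Mir103a2: ugcugccuuguagcauucagguca
Mir107: uguugccuuguggcauGGAGuuca
GGAG was searched on the transcribed strand only, since Lin28 binds the RNA. It occurred once in the Mir107 hairpin, starting 8 bases before the 3p arm, and not in either miR-103 hairpin. The letters are common: 41.1% of the 419 hairpins in the table hold them somewhere, and 11.4% of 280 windows of the same length before a 3p arm do.

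In these neurons rno-miR-103-3p was an abundant miRNA, ranked 16 by mean RPM over the 6 libraries and between 14 and 17 in each. Control libraries held 13516, 12975 and 17305 RPM in replicates 1 to 3, and BDNF libraries held 12744, 12900 and 14036. Control replicate 3 stood highest, the other 5 libraries lay between 12744 and 14036 RPM, and the groups overlapped. The Control mean was 14599 ± 2359 RPM (SD, n = 3) and the BDNF mean 13227 ± 705 (SD, n = 3). The neighbours in the order of mean levels were let-7b-5p above (14038 RPM) and miR-181a-5p below (12587 RPM). The ranges of both overlapped that of rno-miR-103-3p. Within libraries, let-7b-5p was above it in 4 of 6 and miR-181a-5p in 1 of 6.

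Rno-miR-107-3p was the minor partner, ranked 81. Control libraries held 683, 786 and 1054 RPM, and BDNF libraries held 639, 688 and 870. Replicate 3 was the highest and replicate 1 the lowest in both conditions, and the groups overlapped. The means were 841 ± 191 RPM in Control and 733 ± 122 RPM in BDNF (SD, n = 3 each). Its neighbours, miR-3099 with 825 RPM and miR-411-5p with 781 RPM, also had overlapping ranges. Levels of different miRNAs depend on how well each end ligates to the adapters as well as on abundance, and the base that differs between both 3p strands lies next to the 3′ end; its part in the ratio was not tested.

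Rno-miR-107-5p, the strand opposite rno-miR-107-3p in the duplex and usually discarded, was close to the limit of detection. It had 1, 4 and 9 reads in Control replicates 1 to 3 and 5, 7 and 7 in BDNF replicates, or 33 reads in all. The Poisson 95% intervals, from 0.0253 to 5.57 reads for the lowest library and from 4.12 to 17.1 for the highest, overlapped. In RPM the range was 0.0958 to 0.868, rank 506, and its neighbours miR-145-3p and miR-143-5p did not differ from it beyond the spread. Intervals from counts cover counting error only, and they can be too narrow for it, since amplified reads are not independent molecules.

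**Figure D1:**
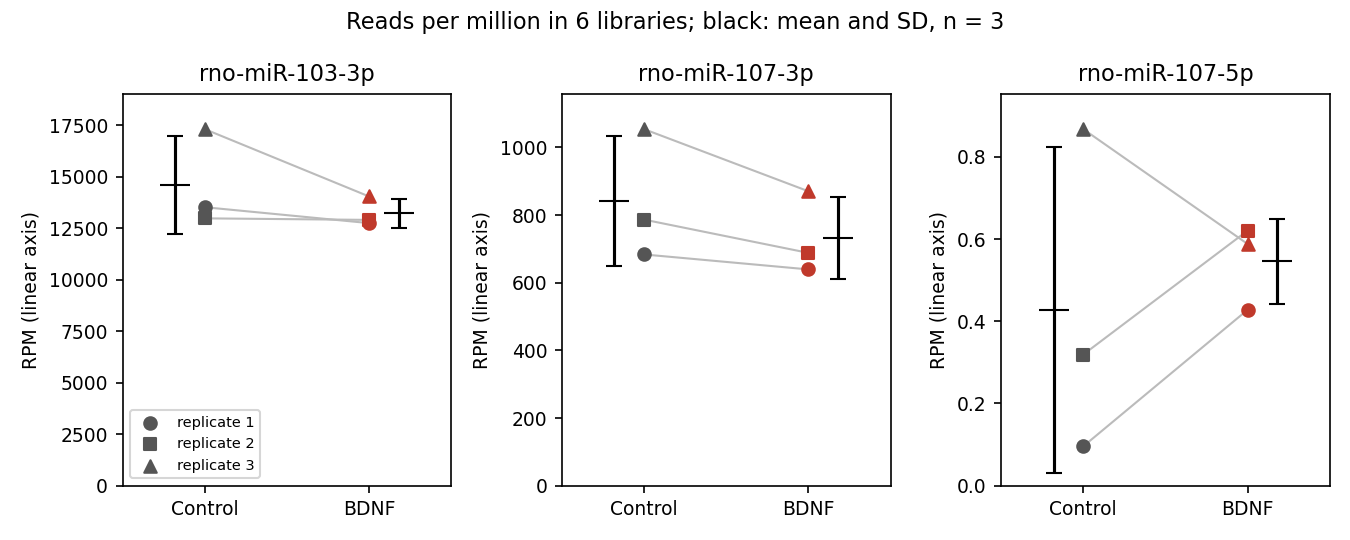
RPM of rno-miR-103-3p, rno-miR-107-3p and rno-miR-107-5p (linear vertical axes from 0, a separate scale per panel) in Control and BDNF libraries, with marker shapes for replicates 1 to 3, grey lines joining libraries with the same number and black bars for the mean ± SD of 3. Control replicate 3 is the highest library in each panel, and the groups overlap in all 3.

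Reads of both 3p strands together made up 1.34% to 1.84% of a library, with rno-miR-103-3p outnumbering rno-miR-107-3p 16.1 to 19.9 times. The share of rno-miR-107-3p in the pair was 4.81%, 5.71% and 5.74% in Control replicates 1 to 3 and 4.78%, 5.06% and 5.84% in BDNF replicates. Replicate 1 was lowest and replicate 3 highest in both conditions, and the conditions overlapped. Counting error, if reads are taken as independent, was small beside these differences. The Wilson 95% intervals ran from 4.71% to 4.92% in Control replicate 1 and from 5.64% to 5.85% in Control replicate 3. The mean share was 5.42% ± 0.53 in Control and 5.23% ± 0.55 in BDNF (SD, n = 3 each). The mean of log2(miR-107-3p/miR-103-3p) was -4.13 in Control and -4.19 in BDNF, a difference of -0.06 (two-sided exact permutation test, P = 0.9, n = 3 each, where the smallest possible P is 0.1). The ratio was lower with BDNF in 2 of 3 pairs, and no difference between the responses of both strands was detected.

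**Figure D2:**
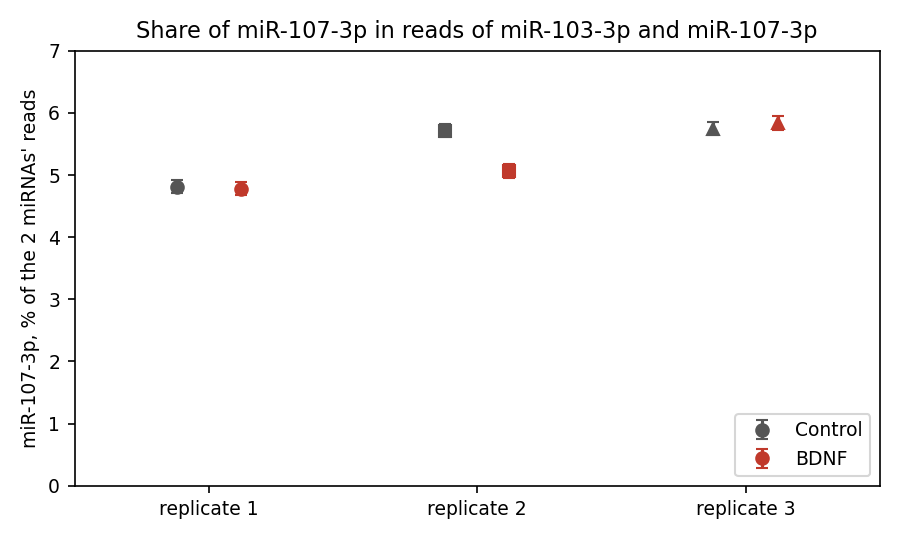
Share of rno-miR-107-3p in the summed reads of rno-miR-103-3p and rno-miR-107-3p, in percent from 0, for Control (grey) and BDNF (red) libraries by replicate number, with Wilson 95% intervals for counting error. The shares lie between 4.78% and 5.84%, and within replicates 1 and 3 the intervals of both conditions overlap.

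Nearly all reads of miR-107 and of miR-103 came from the 3p strand. Of all miR-107 reads, 33 of 53541 were 5p (0.0616%, exact 95% interval 0.0424% to 0.0865%). For miR-103 the 5p strands have rows of their own, rno-miR-103-1-5p with 3 reads and rno-miR-103-2-5p with 2 reads over the 6 libraries, or 5 of 944683 miR-103 reads (0.00053%, exact 95% interval 0.00017% to 0.00124%). All 5 were in Control libraries, while the BDNF libraries held 0, with at most 2 reads in any library. The 5p share was higher for miR-107 than for miR-103 in 6 of 6 libraries. In Control replicate 1 this rested on 1 miR-107 5p read beside 2 miR-103 5p reads. The exact 95% intervals of that library overlapped, at 0.00035% to 0.078% for miR-107 and 0.00017% to 0.0051% for miR-103. The table gives rno-miR-103-2-5p as a strand of 17 bases, shorter than a usual miRNA, and whether that affected its count was not tested.

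Within miR-107, a library held between 1109 and 7134 reads of the 3p strand per 5p read. The mean log2 ratio of 3p to 5p was 11.44 ± 1.29 in Control and 10.40 ± 0.24 in BDNF (SD, n = 3 each). The difference of -1.04 had P = 0.3 in the two-sided exact permutation test, and it was -0.36 without Control replicate 1, the library with a single 5p read.

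BDNF changed none of the members past the threshold. Counts were compared with edgeR's quasi-likelihood test across all 336 miRNAs that averaged 10 RPM or more in a condition, and adjusted P-values are Benjamini-Hochberg values over these 336. Of the members, 2 passed this filter. At an adjusted P below 0.05, 0 of these 2 were called, against 0% of all miRNAs tested. At an unadjusted P below 0.05, the threshold of the study, it was again 0 of 2, with 2.98% of all. DESeq2 and limma-voom also called neither at either threshold. No member had normalized levels that kept the conditions apart, as was the case for 7.14% of all tested.

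For rno-miR-103-3p the log2 fold change (BDNF over Control) was -0.11 with a standard error of 0.10 and a 95% interval of -0.36 to 0.14. Its unadjusted P was 0.32 and its adjusted P 0.999 in edgeR. RPM were lower with BDNF in 3 of 3 pairs of equal replicate number, at ratios of 0.943, 0.994 and 0.811. After scaling by edgeR's TMM factors, which correct for a few abundant miRNAs taking more of a library, the ratios were 1.01, 0.977 and 0.808, so that the direction of pair 1 turned. The difference rested on Control replicate 3: without it the log2 fold change was -0.02.

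For rno-miR-107-3p the log2 fold change was -0.18 with a standard error of 0.15 and a 95% interval of -0.52 to 0.17. Its edgeR P was 0.26, and 0.999 after adjustment. The RPM ratios of the pairs were 0.935, 0.875 and 0.826, and the TMM-scaled ratios were 1.00, 0.860 and 0.823. Without Control replicate 3 its log2 fold change was -0.03, in a fit without a block that kept BDNF replicate 3, its highest BDNF library. When edgeR was fitted with a replicate block, so that libraries of equal number were compared, the log2 fold change was -0.17 with a standard error of 0.08 and a 95% interval of -0.34 to 0.01. The unadjusted P was 0.058 and the adjusted P 0.25. In that fit 20.5% of all tested miRNAs had an unadjusted P below 0.05 and 0% an adjusted one, and neither member was among the former. Across the 336 miRNAs the median log2 fold change was -0.002 without the block, with a median size of 0.092, and both members lay below the upper quartile of sizes, 0.179.

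The counts of both 3p strands were also added into a single feature. This sum does not depend on their split if no read was dropped or counted in both rows. Its log2 fold change was -0.12 with a standard error of 0.10 and a 95% interval of -0.37 to 0.13 (edgeR, adjusted P = 0.998). With the replicate block it was -0.11 with a standard error of 0.08 and a 95% interval of -0.29 to 0.07 (edgeR, adjusted P = 0.51). Both intervals include 0 and reach further below it than above. Rno-miR-107-5p was fitted without the filter, where 0% of 649 miRNAs had an adjusted P below 0.05. Its log2 fold change was 0.39 with a standard error of 0.62 and a 95% interval of -1.01 to 1.79, and it turned to -0.04 without Control replicate 1. In cultures of mixed cells, fewer cells of a type and less miRNA per cell cannot be told apart for any of these values.

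**Figure D3:**
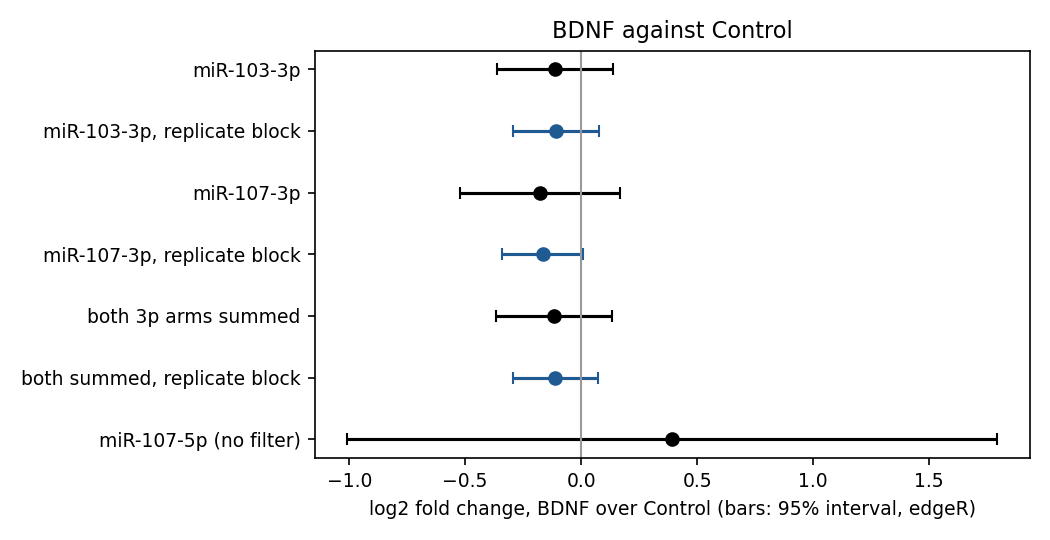
Log2 fold change of BDNF over Control (horizontal axis) with 95% intervals from edgeR for the members and for the sum of both 3p strands, in fits without (black) and with (blue) a replicate block. Each interval includes 0; the widest belongs to rno-miR-107-5p, with 33 reads in all.

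Rno-miR-107-3p differed between replicate numbers. Its TMM-scaled means over both conditions were 689, 767 and 889 RPM in replicates 1 to 3, a span of 1.29-fold, whereas those of rno-miR-103-3p were 13673, 13448 and 14475 RPM, a span of 1.08-fold. In the edgeR fit with both terms, the replicate number had an adjusted P of 0.032 for rno-miR-107-3p and of 0.66 for rno-miR-103-3p. This test was chosen after the values were seen. Such differences were widespread, with 48.2% of the 336 miRNAs past an adjusted P of 0.05, so the call of rno-miR-107-3p does not set it apart. The log2 ratio of miR-107-3p to miR-103-3p, tested over replicate numbers, gave P = 0.067 in an exact permutation test, the smallest that the 15 arrangements allow. That test was also chosen after the values were seen, and ratios of other miRNAs were not tested in this way. The summed RPM of 4 glial marker miRNAs (miR-21-5p, miR-146a-5p, miR-219a-5p and miR-338-3p), of which 3 reached 10 RPM and none was at 0, ran the other way. They were 7331, 6659 and 5617 in Control replicates 1 to 3 and 7529, 7078 and 5652 in BDNF replicates. The summed RPM of 5 neuronal marker miRNAs were also lowest in replicate 3 of each condition. They were 385916, 393644 and 336184 in Control replicates 1 to 3 and 412948, 397878 and 377641 in BDNF replicates. MiR-138-5p, a marker in this sum, went the other way and was highest in replicate 3 of each condition. Its log2 normalized RPM, less the mean of the 6 libraries, was 0.39 in Control replicate 3 and 0.05 in BDNF replicate 3. At 334 normalized RPM in Control it was a small part of the sum, and the other markers were not read singly. Control replicate 3 had the lowest neuronal sum of all 6 libraries. Leaving it out gave the log2 fold changes of smallest size for rno-miR-103-3p and rno-miR-107-3p, but not for rno-miR-107-5p. The part of either marker sum in the results was not tested.

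Neither rno-miR-103-3p nor rno-miR-107-3p was the closest match of the other. Over the 6 libraries, Pearson's r of log2 normalized RPM was 0.71, which placed rno-miR-107-3p at rank 10 among the 335 others for rno-miR-103-3p, and rno-miR-103-3p at rank 90 for rno-miR-107-3p. Most alike to rno-miR-103-3p were miR-30d-5p (r = 0.98), miR-877 (r = 0.94) and miR-485-5p (r = 0.92). Control replicate 3 was the highest library for each of them, as for rno-miR-103-3p. Most alike to rno-miR-107-3p were miR-23b-3p (r = 0.98), miR-138-5p (r = 0.97) and miR-361-5p (r = 0.97), which were low in both replicate 1 libraries and highest in Control replicate 3. The points share libraries, scaling factors and replicate numbers, and r is a description only. None of these 6 miRNAs had an adjusted P below 0.05 for BDNF in edgeR, with log2 fold changes from -0.29 for miR-138-5p to -0.05 for miR-30d-5p.

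**Figure D4:**
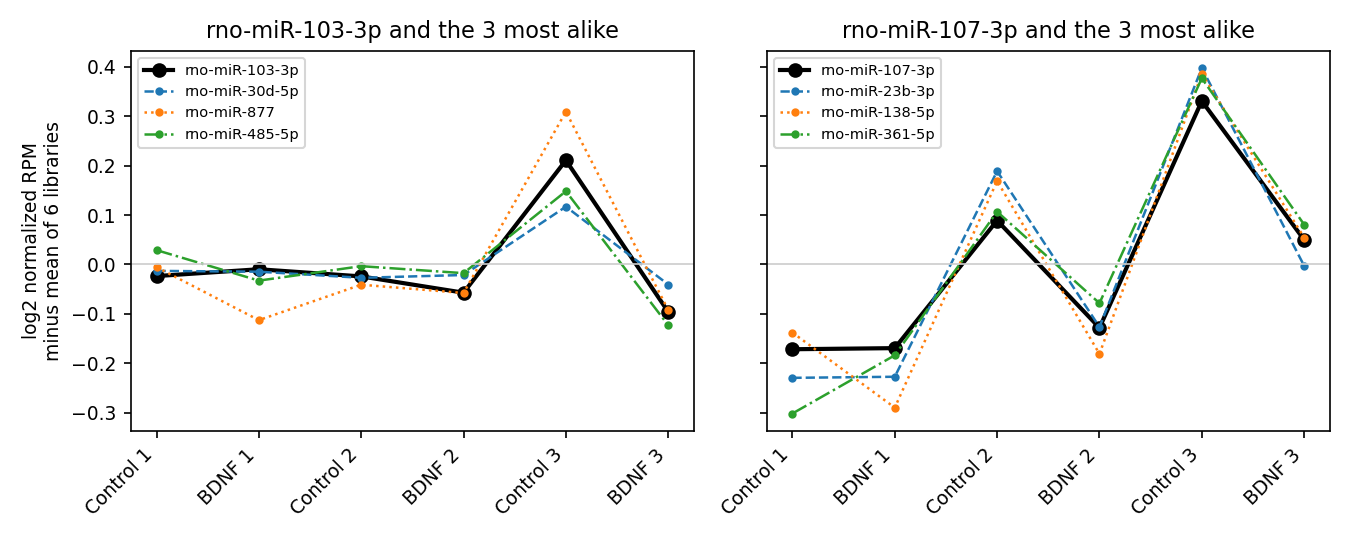
Log2 normalized RPM minus the mean of the 6 libraries (vertical axis) for rno-miR-103-3p (left) and rno-miR-107-3p (right), each with the 3 miRNAs of highest Pearson correlation, in libraries ordered by replicate number. Control 3 is the highest library for both members, and both replicate 1 libraries are the lowest for rno-miR-107-3p.

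Other guide strands were read for comparison. They were 8 let-7 strands and miR-98-5p, which has the let-7 seed, all taken as the let-7 family. With them were miR-143-3p and miR-200c-3p, taken as strands whose precursors Lin28 and TUT4 are known to act on. GGAG occurred in 12 of the 14 hairpins that the table gives for this list with rno-miR-107-3p, beside 41.1% of all 419. It was absent from Mir98 and from Mirlet7c2, and no hairpin was given for let-7b-5p. The element was part of the rule that chose the strands outside the let-7 family, so this count does not test it. Of these 11 other strands, 10 passed the filter. For 5 of the 10 the log2 fold change was below 0 and for 5 above, with a median of -0.01, beside 171 below and 165 above among all 336. None of the 10 was called, at an adjusted P (0% of all tested) or an unadjusted one (2.98% of all). The values ran from -0.26 for let-7c-5p, the list's most abundant strand with 60315 ± 13610 RPM in Control and 49355 ± 4065 in BDNF (SD, n = 3 each), to 0.09 for miR-98-5p. Under the replicate block let-7c-5p was the only one of the 10 with an unadjusted P below 0.05 (0.044, adjusted 0.23 in edgeR), where 20.5% of all miRNAs tested had one. MiR-143-3p, a strand rich in smooth muscle and other mural cells, had 76.9 ± 23.9 RPM in Control and 76.2 ± 19.7 in BDNF (SD, n = 3 each), and miR-200c-3p, an epithelial miRNA, stayed below the filter with 258 reads in all. At -0.18, rno-miR-107-3p lay within the range of the list.

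The miR-15/16 group, with the shifted seed, had 6 members, and all passed the filter. Together they were rarer than rno-miR-103-3p: miR-16-5p held 610 to 943 RPM and the other 5 held 12.4 to 62.9 RPM. For 5 of 6 the log2 fold change was below 0, with a median of -0.22, beside 171 of 336 below 0 and a median of -0.002 among all tested. Of these 5, miR-497-5p was next to 0 at -0.003, and miR-15a-5p, the member above 0, was at 0.02. The median depended on single libraries: it was -0.084 without Control replicate 1, -0.097 without BDNF replicate 3 and -0.37 without BDNF replicate 1. None had an adjusted P below 0.05 in edgeR, and 1, miR-16-5p with -0.41, had an unadjusted one (0.0065), against 2.98% of all tested. Under the replicate block 3 did, miR-16-5p, miR-195-5p and miR-322-5p, against 20.5% of all tested, and their adjusted P-values were 0.12 or higher. The study centres on miR-16-5p in these same samples, so its value is not independent support.

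All 5 neuronal marker miRNAs averaged 10 RPM or more in a condition, and their sum does not show how it was divided among them. The 5 neuronal markers were miR-124-3p, miR-9a-5p, miR-128-3p, miR-137-3p and miR-138-5p, and their summed RPM were 336184 to 393644 in Control and 377641 to 412948 in BDNF libraries, against at most 7529 for the 4 glial markers. The only listed myeloid marker, miR-142-3p, had at most 1.09 RPM, miR-451-5p of red blood cells at most 4.52, and miR-126a-3p of endothelium 56.5 to 80.0. MiR-143-3p and miR-145-5p of mural cells summed to 56.7 to 103.2 RPM. Levels of different miRNAs also depend on ligation, so these sums do not measure the shares of cell types.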

How the data were processed

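Small RNA libraries (NEBNext kit, HiSeq2000, a single lane) were made from 3 Control and 3 BDNF cultures. The authors trimmed the 3′ adapter, filtered reads by quality (Fastx-Toolkit) and length, and assigned them with Miraligner to rat mature miRNAs of miRBase. The deposited values are raw counts per mature miRNA, 1 file per sample, without normalization. Tool versions and the handling of reads matching several miRNAs are not given in the sources used here.

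RPM were computed here from column sums of 10374120 to 12533029 reads. Counts were tested with edgeR 4.0.16 (R 4.3.3; TMM factors 0.928 to 1.085; quasi-likelihood; two-sided) on miRNAs averaging 10 RPM or more in a condition, without a block, since the methods name none. The standard error is the log2 fold change divided by the square root of F. Alternatives were DESeq2 1.42.0, limma-voom 3.58.1, other scalings and filters, a replicate block and leaving out each sample. Libraries with equal replicate numbers deviated together over the 336 miRNAs (r of 0.80, 0.48 and 0.89 for numbers 1 to 3). The numbers, taken from the sample titles, were therefore used as pairs in the replicate block and in the ratios of pairs. The main edgeR fit and the permutation tests between conditions given above did not use the pairs. No libraries of a condition agreed within sampling noise (chi-square per degree of freedom at least 220.3). The methods call the replicates biological.

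Sequences came from RefSeq tables (GRCr8), where 583 of the 649 names matched. The members and lists were chosen with earlier results of these data known. Besides members and lists, the text names the 3 miRNAs most correlated with each 3p member, the neighbours in mean RPM and other miR-103 rows.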

Additional observations from a re-analysis of the deposited data

How the results depend on the processing

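The log2 fold changes of miR-103-3p, miR-107-3p and their sum kept their negative direction and stayed short of an adjusted P of 0.05 under all 13 alternatives each, and 0 members and 0 strands of either list were called under any of them. Leaving out single libraries moved the value from -0.15 to -0.02 for miR-103-3p, from -0.27 to -0.03 for miR-107-3p, and from -0.14 to -0.02 for the sum; the smallest values came without Control replicate 3. With the replicate block the values were -0.11, -0.17 and -0.11, and the block changed no call. For miR-107-5p, fitted without the filter, single libraries moved the value from -0.036 to 1.27, and the negative value came without Control replicate 1, which holds 1 read; the filter of 1 RPM left it out. The difference in log2(miR-107-3p/miR-103-3p) ran from -0.145 to 0.0090 when single libraries were left out, turning positive without BDNF replicate 1, and that in the miR-107 arm ratio from -1.64 to -0.36. The median of the Lin28 list with miR-107-3p, -0.03, turned to 0.0067 with upper-quartile scaling and to 0.077 without BDNF replicate 3; single libraries moved it from -0.089 to 0.077. The cause of these turns was not tested. With 3 libraries per condition, depth limits only miR-107-5p and the miR-103 5p strands; the spread between libraries limits the rest.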
